A study of Mus musculus with 2 samples.

Results

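Interferon-signature T cells are T cells that hold many transcripts of interferon-stimulated genes at the moment of sampling. Here they were islet T cells with at least 3 unique molecular identifiers (UMIs, each standing for 1 captured mRNA molecule) of Ifit1 and Ifit3 together. A T cell was a barcode with at least 500 detected genes, at most 10% mitochondrial UMIs, at least 1 UMI of Cd3d, Cd3e or Cd3g, and at most 1 UMI of Cd79a, C1qa and Lyz2 together. Of 13251 such T cells, 200 met the rule, out of 22466 barcodes that passed the quality filters. The reference was the 12089 T cells with no Ifit1 or Ifit3 UMI, called Ifit-zero T cells below, and 962 T cells with 1 or 2 such UMIs belonged to neither group. Because measured values chose the cells, every gene difference between them and the reference is a description and carries no test.

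The cells were sorted from islets of 12-week-old female NOD mice, a strain in which T cells destroy the insulin-producing beta cells. One library came from wild-type (WT) NOD mice and the other from mice labelled NOD.Cxcl16-/-, a knockout of the chemokine that binds the receptor CXCR6 on T cells. Live CD45+CD31- cells, which are leukocytes free of endothelial cells, were sorted and sequenced with 10x Genomics 3′ chemistry. The labels do not say how many animals each library pooled. With 1 library per genotype there was no replicate check, no p-value is given, and all intervals are 95% intervals that cover counting error only.

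Type I interferons bind the receptor IFNAR1-IFNAR2, and the kinases JAK1 and TYK2 then activate transcription factors. A complex that contains STAT2 and IRF9 binds interferon-stimulated response elements and turns on genes for antiviral effectors, nucleic-acid sensors and antigen presentation, as well as brakes such as USP18 and SOCS1. In NOD mice and in people with type 1 diabetes, interferon-stimulated transcripts in islets and blood have been studied as an early feature of the disease.

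The libraries held 13859 (WT NOD) and 10554 (labelled NOD.Cxcl16-/-) barcodes with 93553185 and 98681133 UMIs. The targeted gene did not separate them, since Cxcl16 stood at 104 and 102 CPM (UMIs of a gene scaled to a total of 1000000) over all kept barcodes. The labels do not say which part of the gene was altered, so the second library is called by its label and no difference between the libraries is tied to the genotype. The libraries shared 45 barcode sequences, of which 1 belonged to a member of the second library and none to members of both.

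In the WT NOD library, 158 of 7764 T cells (2.04%, exact Clopper-Pearson interval 1.73 to 2.37) were interferon-signature cells. In the library labelled NOD.Cxcl16-/-, 42 of 5487 were (0.765%, 0.552 to 1.03), which is 1.27 percentage points lower by counting (difference -1.27, -1.66 to -0.874). The WT NOD share was higher at each of the 5 cutoffs tried. At 1 Ifit UMI or more the shares were 9.94% and 7.11%, at 2 or more 3.45% and 1.90%, at 5 or more 1.07% (83 cells) and 0.255% (14 cells), and at 10 or more 0.322% (25 cells) and 0.109% (6 cells). T cells of the WT NOD library held a median of 3985 UMIs and those of the other library 4763. When each cell was thinned to 2000 UMIs, with 1858 and 376 shallower cells left out, 6.11% and 3.85% of T cells kept any Ifit1 or Ifit3 UMI, and 0.847% and 0.137% kept 3 or more.

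**Figure D1:**
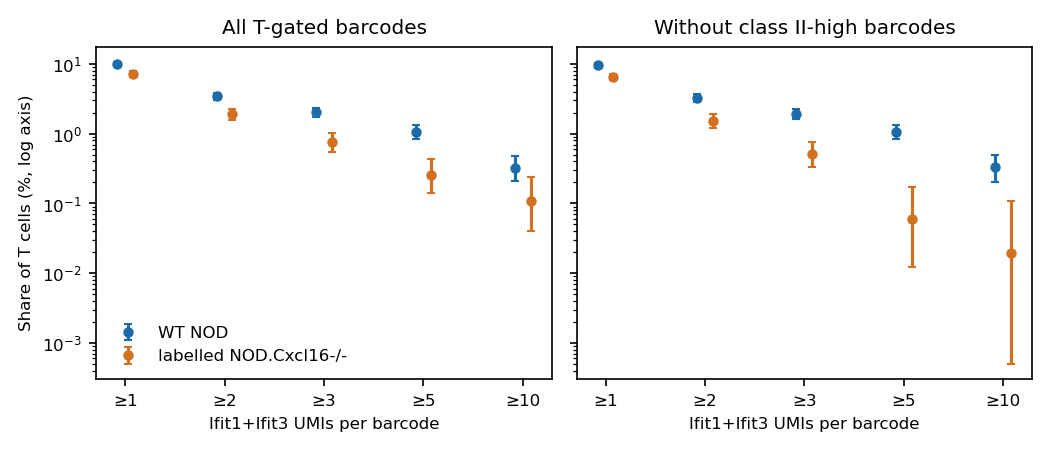
Share of T cells (%, log axis) with at least 1, 2, 3, 5 or 10 Ifit1 and Ifit3 UMIs in the WT NOD library (blue) and the library labelled NOD.Cxcl16-/- (orange), with exact 95% counting intervals, for all T cells (left) and without barcodes rich in class II transcripts (right). The WT NOD share was the higher at each cutoff, and the distance was wider on the right, where it reached 1.07% against 0.0592% at 5 UMIs.

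The share passing the rule differed by depth. Over 4 depth classes cut at 2828, 4332 and 6922 UMIs, the shares in the WT NOD library were 0.351%, 2.15%, 2.26% and 4.15%, and in the other library 0 of 751 (up to 0.490%), 0.502%, 0.694% and 1.48%. Without class II-high barcodes, defined below, the shares were 0.408%, 2.27%, 2.34% and 3.12% in the WT NOD library. In the other they were 0 of 680 (up to 0.541%), 0.511%, 0.710% and 0.550%. The last 3 of these shares rest on 8, 11 and 7 members, and their intervals overlap. Members held more UMIs than Ifit-zero T cells, with medians of 6221 against 3886 in the WT NOD library and 8126 against 4727 in the other. Their mitochondrial shares were close to those of the reference, at 0.922% against 0.935% and 0.905% against 1.01%. The 158 WT NOD members held 3 to 34 Ifit UMIs (median 5), and 119 of them had both genes. The other 42 held 3 to 21 (median 4), and 21 had both.

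Some members also held many transcripts of antigen-presenting cells. UMIs of the class II antigen-presentation genes H2-Aa, H2-Ab1, H2-Eb1 and Cd74 split them with an empty stretch between 16 and 31 UMIs in the WT NOD library and between 8 and 82 in the other. With a cutoff of 20 UMIs, set after seeing this gap, 29 of 158 members (18.4%, 12.7 to 25.3) and 16 of 42 (38.1%, 23.6 to 54.4) were class II-high. Among Ifit-zero T cells the shares were 13.3% and 7.08%. Class II-high members held a median of 21521 and 17492 UMIs, against 5379 and 5336 in class II-low members. Their T-cell receptor and CD3 UMIs had a median of 37 in both libraries, against 33 and 31 in class II-low members. Scaled to depth the level was lower. Cd3d, Cd3e, Cd3g, Trac and Trbc2 summed to 2522 and 1695 CPM in class II-high and 5899 and 5372 CPM in class II-low members. Only 1 CD3 UMI was found in 2 of 29 and 3 of 16 class II-high members, against 1 of 129 and 0 of 26 class II-low ones.

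Dendritic cell markers were found in class II-high and not in class II-low members. The 4 dendritic cell markers Xcr1, Clec9a, Cd209a and Flt3 summed to 92.9 and 128 CPM in class II-high members, and all 4 were at 0 in the 129 and 26 class II-low ones. In class II-high Ifit-zero T cells the same 4 markers summed to 121 and 150 CPM, so their presence was not particular to members. Islet hormone genes summed to 1560 and 2488 CPM in class II-high members, compared with 157 and 158 CPM in class II-low ones. One cell in each library held much of the first 2 sums, with 828 of 1125 and 498 of 797 UMIs, and without it the class II-high sums were 429 and 989.9 CPM. In WT NOD class II-low members 1 cell held 131 of 150 islet UMIs, and the sum without it was 19.96 CPM. Class II-high Ifit-zero T cells held 348 and 350.2 CPM of the islet hormone genes. Cxcl16 itself stood at 262 and 231 CPM in class II-high members, while class II-low members held 1.05 CPM in the WT NOD library and none in the other. A doublet score marked 14 of 29 and 5 of 16 class II-high members, against 6 of 129 and 2 of 26 class II-low ones. Whether the class II-high barcodes are pairs of cells was not tested, and each result below is given with them, without them, or both.

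**Figure D2:**
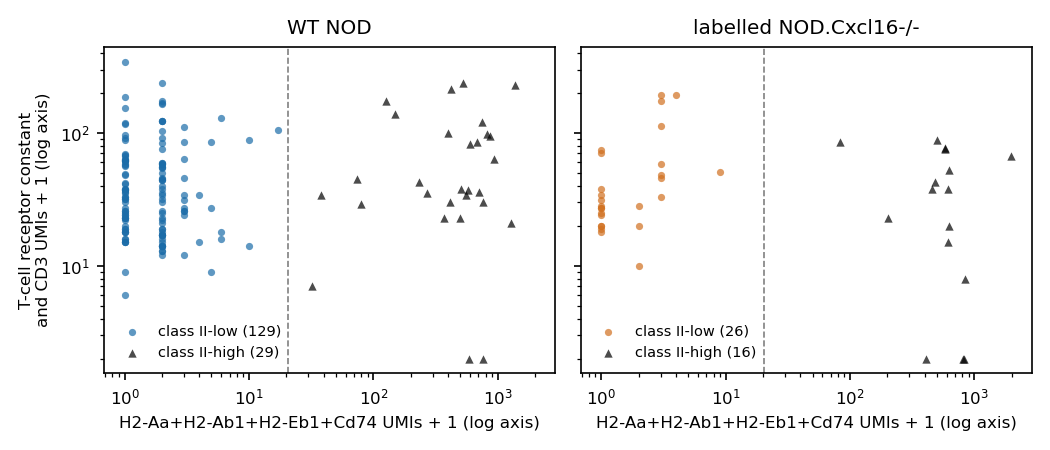
Each point is 1 interferon-signature T cell, placed by its UMIs of 4 class II genes (horizontal, log axis) and of T-cell receptor constant and CD3 genes (vertical, log axis), in the WT NOD library (left) and the library labelled NOD.Cxcl16-/- (right). The 29 and 16 class II-high members (black triangles) lie apart from the others along the class II axis and overlap them along the T-cell axis.

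Without class II-high barcodes the share of interferon-signature cells was 1.92% in the WT NOD library (129 of 6702) and 0.513% in the other (26 of 5069), a difference of -1.41 percentage points (-1.80 to -1.03). At 5 Ifit UMIs or more it was 1.07% (72 cells) against 0.0592% (3 cells), and at 10 or more 22 cells against 1. The 26 class II-low members of the second library thus sat close to the cutoff, and 16 of them held exactly 3 Ifit UMIs. One member of that library held 38451 UMIs and weighs heavily in its sums, so values per cell are given beside the sums.

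Markers that the gate did not use were compared in the class II-low members. Trac, the constant segment of the T-cell receptor alpha chain, stood at 634 CPM in WT NOD members and 682 CPM in Ifit-zero T cells, and at 604 and 718 CPM in the other library. It was found in 88.4% and 96.2% of members. The B-cell list, which includes the gate's Cd79a, summed to 4.19 and 4.79 CPM in members and 21.7 and 12.5 CPM in the reference. The 4 monocyte genes summed to 181 CPM in WT NOD members and 145 CPM in the reference, with UMIs in 60 of 129 members, and to 134 and 139 CPM in the other library (8 of 26 members). Of these genes Ly6c2 was at 0 in the members of both libraries, and Ccr2, Plac8 and Ms4a6c were detected in both. The plasmacytoid dendritic cell list summed to 601 and 182 CPM in the WT NOD library and to 273 and 155 CPM in the other. Most of this was Bst2 (565 CPM in WT NOD members), which is also on the interferon list, while Siglech was at 0. Plasma-cell genes had UMIs in 40 of 129 and 9 of 26 members, at 62.8 and 57.5 CPM against 157 and 101 CPM in the reference. The part of such transcripts in the results was not tested.

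Beyond Ifit1 and Ifit3, the cells held raised levels of most other interferon-stimulated genes. A combined list of 5 groups (antiviral effectors, the ISG15 system, Schlafen genes, nucleic-acid sensors and the PYHIN family) held 58 measured genes other than those of the rule. Genes were compared where at least 20 UMIs were found in the members or expected there from the reference level. In the WT NOD library, 43 of 50 such genes were at least 2-fold higher in members than in Ifit-zero T cells and none was 2-fold lower, with a median log2 ratio of 1.997. Of all 7730 genes compared, 4.48% were 2-fold higher and 0.582% lower, and their median was -0.04. Genes that reach the minimum only through their level in the members had to differ, so the count was repeated for the 28 genes that reached it by the reference level alone, of which 23 were 2-fold higher.

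Without class II-high barcodes the pattern was stronger. Then 37 of 43 listed genes were 2-fold higher in WT NOD members and none lower, with a median of 2.45, while 2.31% of all 5880 genes were higher and 2.07% lower. Of the 21 listed genes that passed by the reference level, 16 were 2-fold higher. Summed over the list, members held 12292 CPM and Ifit-zero T cells 3550 CPM.

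The 42 members of the library labelled NOD.Cxcl16-/- had the same direction at a lower level. Of 30 listed genes compared, 23 were 2-fold higher and none lower (7.91% of all 4349 genes were higher and 2.41% lower), with a median of 1.39, and of the 12 that passed by the reference level 7 were. Without class II-high barcodes 10 of 13 were 2-fold higher (2.52% of all 1868 genes were higher and 2.03% lower), with a median of 1.13, and the sums were 5291 and 2934 CPM.

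The highest ratio belonged to an antiviral effector. Rsad2, which encodes viperin, an enzyme that makes a chain-terminating nucleotide, stood at 104 CPM (84.2 to 126) in WT NOD class II-low members and 1.49 CPM in the reference, a log2 ratio of 5.39. It was found in 31.8% of members and 0.792% of Ifit-zero T cells. Cmpk2, its neighbour and a nucleotide kinase, stood at 53.4 and 1.69 CPM (log2 4.34), and Ifit3b, a close copy of Ifit3, at 68.0 and 1.78 CPM (4.64). The oligoadenylate synthetase gene Oas3, whose product starts RNA decay, had a log2 ratio of 3.37, and the tetherin gene Bst2 went from 137 to 565 CPM (2.04). Ifi27l2a, an abundant interferon-stimulated transcript already present at 1867 CPM in the reference, stood at 4856 CPM (1.38). In all, 15 of 17 antiviral effector genes were 2-fold higher in these cells, and 5 of the 7 that passed by the reference level (2.31% of all genes were).

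The ubiquitin-like protein ISG15 and its partners formed a second group. Isg15 stood at 505 CPM (461 to 552) in WT NOD class II-low members and 31.9 CPM in Ifit-zero T cells (log2 3.94, 3.79 to 4.09). It was found in 84.5% of members and 13.5% of the reference. In the other library it stood at 144 and 25.2 CPM (2.46, 1.89 to 2.98). Usp18, which removes ISG15 and blocks the interferon receptor, stood at 89.0 and 6.94 CPM (log2 3.502) in WT NOD cells, and the ISG15 ligase gene Herc6 had a log2 ratio of 2.40.

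Schlafen genes, which restrain T-cell growth or viral replication, were less uniform. Slfn5 had a log2 ratio of 4.02 in WT NOD class II-low members (247 against 14.3 CPM), with UMIs in 50.4% of members and 6.81% of the reference. Slfn1 stood at 289 and 46.2 CPM (2.62) and Slfn8 had a ratio of 2.46, whereas Slfn2, needed for T-cell quiescence, stood at 493 and 250 CPM (0.97). In the second library Slfn1 stood at 105 and 41.0 CPM (1.34, 0.67 to 1.94) and Slfn5 at 23.96 and 14.9 CPM (0.65, -0.86 to 1.85), which is within counting error of no difference.

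Sensors of foreign nucleic acid were also higher. Ifih1, which encodes the RNA sensor MDA5 and whose human counterpart is a type 1 diabetes risk gene, stood at 76.4 and 7.86 CPM in WT NOD class II-low members and reference (log2 3.13). The RNA sensor gene Ddx58 (RIG-I) had a ratio of 2.45, Ddx60 2.93, and the nucleic-acid sensor gene Zbp1 2.41 (300 against 55.8 CPM). In this group 8 of 9 genes were 2-fold higher, and 5 of the 6 that passed by the reference level (2.31% of all genes were). Of the listed genes of the PYHIN family, relatives of the DNA sensors AIM2 and IFI16, 7 of 8 were 2-fold higher. By the reference level 3 of 4 were, and Ifi206 (3.07) and Ifi209 (2.69) were among the 7. Ifi202b (3.42) and Ifi214 (3.07) belong to the same family but were not on the list and are outside these counts. Reads of near-identical copies within the Ifit, PYHIN, Schlafen and GBP families may be split between them, so the values of single members of these families are uncertain.

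**Figure D3:**
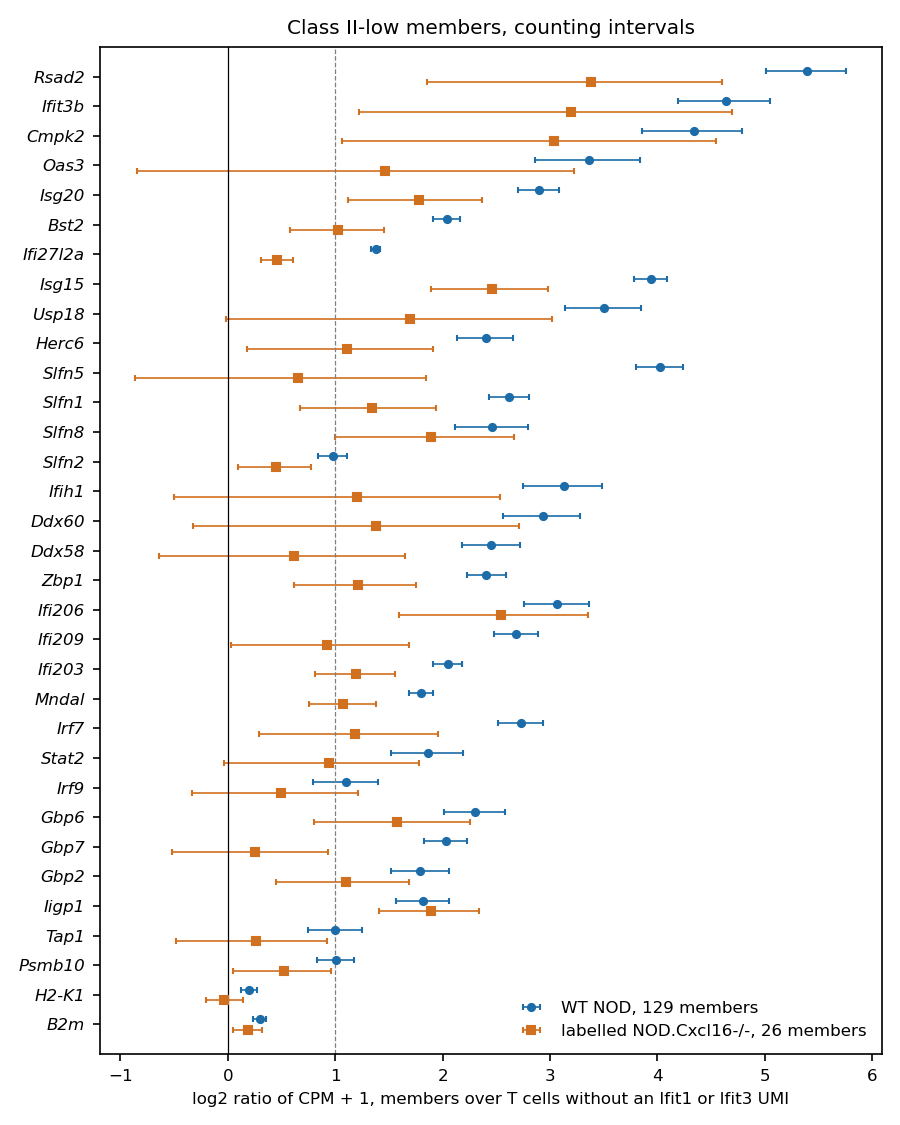
Log2 ratios (CPM with 1 added) of 33 interferon-pathway genes in class II-low interferon-signature T cells over Ifit-zero T cells, for the WT NOD library (blue circles, 129 members) and the library labelled NOD.Cxcl16-/- (orange squares, 26 members), with 95% counting intervals and a dashed line at 2-fold. Ratios run from 5.39 for Rsad2 down to 0.20 for H2-K1, a class I heavy chain gene, in the WT NOD library.

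The promoters of these genes were read for the interferon-stimulated response element, written as GAAA and GAAA separated by any 2 bases, on either strand. Windows ran from 250 bases before to 50 after each start site (RefSeq, mouse build GRCm38.p6). The motif was found in 3.44% of all 32851 windows, or 3.99% of 27025 genes, and in 30 of the 50 listed interferon-stimulated genes found in the table (60.0%). The examples below were chosen among genes that hold the motif, to show where it lies in the 2 genes of the rule and in genes of the antiviral, ISG15, Schlafen and PYHIN groups. Capitals mark the motif, in the reading direction of the gene, so that the opposite-strand form appears as TTTC and TTTC.
Ifit1, chr19:34640794-34640823, + strand, 75 bases before the start: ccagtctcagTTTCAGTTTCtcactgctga
Ifit3, chr19:34583397-34583426, + strand, 112 bases before: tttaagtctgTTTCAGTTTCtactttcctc
Ifit3b, chr19:34607793-34607822, + strand, 144 bases before: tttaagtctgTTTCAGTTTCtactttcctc
Isg15, chr4:156200865-156200894, - strand, 56 bases before: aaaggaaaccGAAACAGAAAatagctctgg
Rsad2, chr12:26456553-26456582, - strand, 110 bases before: ctggtccaacTTTCATTTTCagaaaacaga
Slfn5, chr11:82951937-82951966, + strand, 145 bases before: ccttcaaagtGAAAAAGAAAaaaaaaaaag
Ifi206, chr1:173491339-173491368, - strand, 30 bases before: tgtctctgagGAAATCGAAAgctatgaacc
Oas3, chr5:120777715-120777744, - strand, 65 bases before: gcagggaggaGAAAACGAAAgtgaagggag

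Ifit3 and its copy Ifit3b shared all 30 letters of the window, and the Ifit1 motif has the same core letters as both. Within the list the motif was in 8 of 10 PYHIN genes, 15 of 22 antiviral genes, 3 of 6 sensor genes, 3 of 7 Schlafen genes and 1 of 5 genes of the ISG15 system. It was in 9 of 10 genes of the GBP and IRG families, in 4 of 15 class I genes and in none of 7 recirculation or 10 cell-cycle genes. Several genes with high ratios lacked these letters in the window, among them Slfn1, Irf7, Cmpk2 and Ifit2. The gamma-activated site (TTC and GAA separated by any 3 bases), an element used in the response to type II interferon, was in 9.55% of all genes, in 6 of the 50 listed genes and in 6 of the 10 GBP and IRG genes. A match describes the letters and says nothing of binding.

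The amount of other interferon-stimulated transcripts tended to increase with the number of Ifit UMIs, but not at every step. In class II-low T cells of the WT NOD library, the 58 listed genes summed to 3550, 5616 and 6792 CPM at 0, 1 and 2 Ifit UMIs. They reached 10785 CPM at 3, just inside the rule, and 10196, 13161 and 14188 CPM at 4, 5 to 9, and 10 or more. In the other library the sums were 2934, 3400 and 5499 CPM at 0, 1 and 2 UMIs. At 3 UMIs (16 cells) the sum was 4704 CPM, below that of the 51 cells with 2. The sums were 5535 CPM at 4 (7 cells), 5959 CPM at 5 to 9 (2 cells) and 6606 CPM at 10 or more (1 cell). Members with the same Ifit count therefore held less of the list in the second library, as at 3 Ifit UMIs with 10785 and 4704 CPM.

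**Figure D4:**
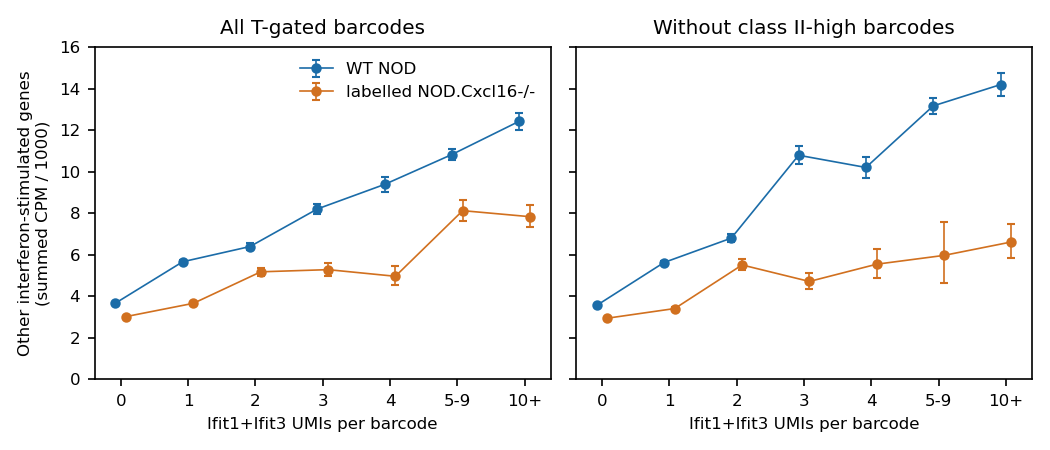
Summed level of 58 other interferon-stimulated genes (CPM divided by 1000, 95% counting intervals) in T cells grouped by their Ifit1 and Ifit3 UMIs, for all T cells (left) and without class II-high barcodes (right). On the right, the WT NOD library (blue) runs from 3550 to 14188 CPM and the library labelled NOD.Cxcl16-/- (orange) from 2934 to 6606 CPM, the last 2 orange points standing for 2 cells and 1 cell.

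Single cells varied widely. The listed genes made up a median of 1.23% of the UMIs of a class II-low WT NOD member, from 0.276% to 4.52%, against 0.307% in an Ifit-zero T cell and 0.506% in a T cell with 1 or 2 Ifit UMIs. Of 129 members, 91 (70.5%) lay above the 95th percentile of Ifit-zero T cells (0.932%) and 46 above the 99th. In the second library the median was 0.514%, from 0.179% to 0.945%, against 0.267% in the reference. Of its 26 members, 7 (26.9%) lay above the 95th percentile and none above the 99th. Conversely, 121 of 6062 Ifit-zero T cells of the WT NOD library had a list share above the members' median, so the rule leaves out some cells with as much of the program.

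Signalling genes moved less than the effectors. Irf7, the transcription factor that amplifies interferon responses, stood at 237 and 34.9 CPM in WT NOD class II-low members and reference (log2 2.73). Stat2 (1.86) and Irf9 (1.10) were also among the 4 of 9 genes at or above 2-fold (4 of 8 by the reference level). Of all 5880 genes compared in these cells, 2.31% were 2-fold higher. The receptor genes Ifnar1 (62.8 and 52.2 CPM, 0.26) and Ifngr1 (0.26) and the kinase gene Jak1 (0.25) stayed under 2-fold. Ifnar2 stood at 85.8 and 95.01 CPM. Of the 6 brakes on the pathway 3 were 2-fold higher (2 of 5 by the reference level), with Usp18 the highest, while Socs1 had a ratio of 0.60.

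Type I interferon transcripts were almost absent from the class II-low members, whereas Ifng was present. Ifnb1, which encodes interferon beta, was among the 20 highest genes of all WT NOD members, with 25 UMIs. These came from 9 cells, 10 from 1 of them, and 1 UMI remained in class II-low members. No Ifna UMI was found in class II-low T cells of either library. Ifng, the type II interferon of T cells, stood at 202 and 162 CPM in WT NOD class II-low members and reference (0.31).

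Genes that respond to both interferon types were higher, and class I presentation genes were raised to a smaller extent. Of the GTPases of the GBP and IRG families, which attack the vacuoles of intracellular pathogens, 13 of 15 were 2-fold higher in WT NOD class II-low members and 9 of the 11 that passed by the reference level. Examples are Gbp6 (log2 2.30, 119 against 23.4 CPM), Gbp7 (2.03) and Iigp1 (1.82). Of all 5880 genes compared in these members, 2.31% were 2-fold higher and 2.07% lower. In the second library all 7 GBP and IRG genes compared were 2-fold higher (2.52% of all 1868 genes were). Their median was 1.36, although only 1 of them passed by the reference level. Iigp1 there had a ratio of 1.89. All 16 class I and processing genes were above 0 in WT NOD class II-low members, with a median of 0.43 (-0.06 for all genes). Of these 16 genes 3 were 2-fold higher, Tapbp (1.16), Psmb10 (1.01) and Tap1 (1.00), and B2m stood at 2328 and 1894 CPM (0.30). Of genes that lean towards type II interferon, 1 of 6 was 2-fold higher in the WT NOD library (Gbp2, 1.79) and 1 lower, Cd74, which is itself a gene of the class II cutoff.

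Other programs of T cells differed less from the reference. In WT NOD class II-low members none of 10 recirculation genes was 2-fold higher or lower (median 0.21), nor was any of 10 T-cell receptor response genes (0.15) or of 7 stress genes (-0.20). Of all 5880 genes compared there, 2.31% were 2-fold higher and 2.07% lower. Of 10 genes on the inhibitory receptor list 1 was 2-fold lower (list median -0.33), namely Tnfrsf9, which encodes the costimulatory receptor 4-1BB, with 47.1 and 126 CPM (-1.40). Of 6 regulatory T-cell genes 1 was lower (median -0.37), Tnfrsf4 (-1.22), the OX40 receptor. Of 13 effector genes 1 was 2-fold higher (median 0.23), the chemokine receptor gene Cx3cr1 (1.08), and of 6 residency genes 1 was lower (-0.04), Ahr (-1.38). Cxcr6, the receptor for CXCL16, stood at 196 and 202 CPM in WT NOD members and reference, and at 149 and 245 CPM in the other library (-0.72, -1.27 to -0.22).

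Several cell-cycle transcripts were lower in the interferon-signature cells of the WT NOD library. There 4 of 12 cell-cycle genes were 2-fold lower and none higher without class II-high barcodes, with a median of -0.59. Of all 5880 genes compared there, 2.07% were 2-fold lower. Rrm2, a subunit of the enzyme that makes deoxynucleotides, fell from 84.0 to 19.9 CPM (log2 -2.02), and Pclaf, a replication factor, from 238 to 98.4 CPM (-1.27). With class II-high barcodes included, Rrm2 had a ratio of -1.03 and Pclaf -0.63. Mcm5 (-1.29) and Stmn1 (-1.01) were the other 2. In the second library 1 of 7 was 2-fold lower (median -0.12), Ube2c (-4.86), and Rrm2 stood at 57.5 and 70.2 CPM. Of all 1868 genes compared in that library, 2.03% were 2-fold lower.

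The lowest genes over all WT NOD members were mostly those of other cells. B- and plasma-cell genes (Jchain -3.06, Ebf1 -1.97 and Mzb1 -1.92, besides the rule's Cd79a) and natural killer genes (Ncr1 -2.27 and Klra4 -2.20) made up most of the 10. Ccl1, a chemokine of activated T cells, had no UMI in the 158 members (12.5 CPM in the reference). Nrn1, a gene known in regulatory and exhausted T cells, stood at 13.7 and 53.8 CPM (-1.90). At the other end, 13 of the 20 highest genes were again among the 20 highest without class II-high barcodes. Of the others, Col17a1 and Gm15848 came from 1 cell each and Tas1r1 from 2, and Gcg, glucagon, which ranked high without class II-high barcodes, had 131 of its 139 UMIs over all members in 1 cell.

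Members were split by coreceptor transcripts. In the WT NOD library 67 of 158 had Cd8a without Cd4 (42.4%, 34.6 to 50.5), 29 Cd4 without Cd8a (18.4%), 13 Foxp3, the factor of regulatory T cells (8.23%), 7 both coreceptors and 42 neither (26.6%). Among Ifit-zero T cells the shares were 30.1%, 19.1%, 4.93%, 2.20% and 43.6%. Members were deeper than the reference, as given above. After thinning to 2000 UMIs, Cd8a alone was found in 22.3% of members and 22.8% of the reference, Cd4 alone in 10.8% and 14.2%, Foxp3 in 3.82% and 3.05%, and neither in 63.1% and 59.5%. The 42 members of the second library comprised 9 with Cd8a, 9 with Cd4, 4 with Foxp3, 4 with both coreceptors and 16 with neither.

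The interferon list was higher in each of the 4 subsets compared. In WT NOD class II-low members, 32 of 34 listed genes were 2-fold higher in the 57 Cd8a cells (3.097% of all genes were), 18 of 18 in the 21 Cd4 cells (5.70%), 17 of 17 in the 10 Foxp3 cells (8.60%) and 22 of 23 in the 35 cells with neither (5.70%). Of the genes that passed by the reference level, 8 of 10, 4 of 4, 3 of 3 and 5 of 6 were 2-fold higher. Log2 ratios of the summed list were 1.72, 2.06, 1.81 and 2.06. Slfn5 had ratios of 3.84, 4.47, 3.57 and 4.27, and Isg15 of 3.84, 4.55, 3.96 and 4.13.

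Other genes differed between subsets. In Cd8a members the recirculation genes Il7r (179 against 86.2 CPM, 1.04) and S1pr1 (158 against 75.7 CPM, 1.05) and Ly6a (1.77), a surface marker gene that interferons also induce, were 2-fold higher, and the activation genes Xcl1 (-1.06) and Tnfrsf9 (-1.09) 2-fold lower. In Cd4 members the effector genes Ccl5 (57.3 against 1048 CPM, -4.17), Nkg7 (-2.77) and Cxcr6 (14.3 against 177 CPM, -3.54) were lower, and so were Lag3 (-2.82) and Lef1 (-1.65). In Foxp3 members the receptors Tnfrsf4 (-1.58), Tnfrsf9 (-1.88) and Tnfrsf18 (-1.46), which mark activated regulatory T cells, were lower, and summed cell-cycle genes stood at 177 and 1924 CPM (-3.43). Summed effector genes stood at 11085 and 3459 CPM in Foxp3 members and reference (1.68). Of the 11085 CPM, Ccl5 made up 9511, from 5 of the 10 cells, and 1 of 3 effector genes compared was 2-fold higher. The Cd4 and Foxp3 values rest on 21 and 10 cells.

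**Figure D5:**
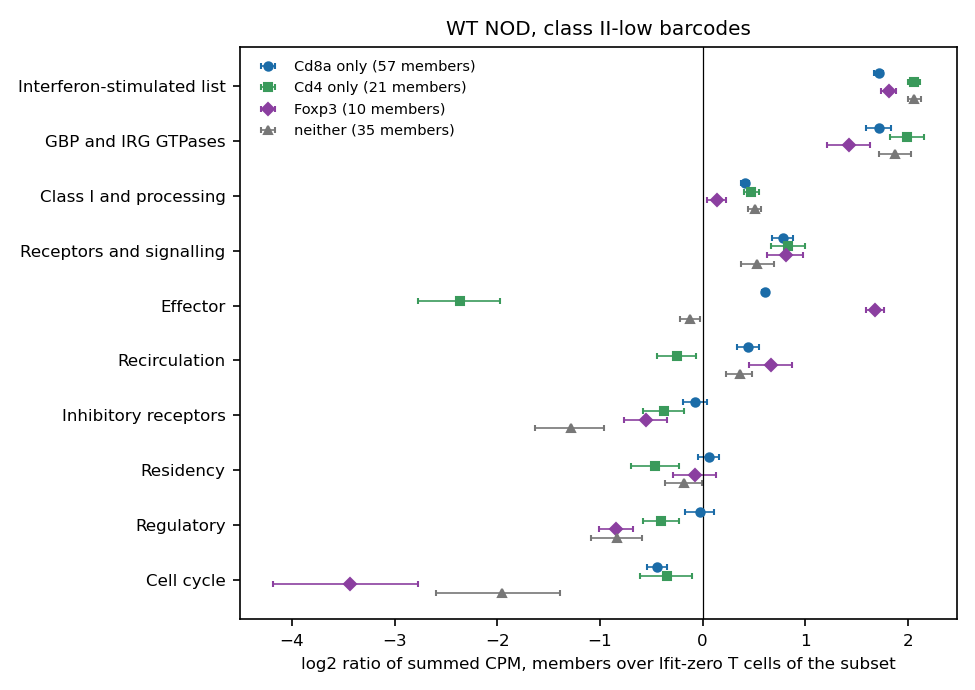
Log2 ratios of summed CPM, class II-low interferon-signature T cells over Ifit-zero T cells of the same coreceptor subset in the WT NOD library, for 10 gene lists with 95% counting intervals. The interferon-stimulated list lies between 1.72 and 2.06 in all 4 subsets, while effector genes run from -2.36 in Cd4 cells to 1.68 in Foxp3 cells, mostly from Ccl5, and cell-cycle genes from -0.35 in Cd4 cells to -3.43 in Foxp3 cells.

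Between the libraries, interferon-signature cells differed in the level of the program as well as in number. Of 20 listed genes compared in class II-low members, all 20 were lower in the library labelled NOD.Cxcl16-/- and 11 were 2-fold lower (3.32% of all 1566 genes were 2-fold lower and 0.511% higher), with a median log2 ratio of -1.25. Genes that reached the minimum only through their WT NOD level had to be lower, so the count was repeated for the 13 that reached it by the level in the second library. All 13 were below 0 and 7 were 2-fold lower (1.21% of all 1405 such genes were), with a median of -1.21. Isg15 stood at 505 CPM in WT NOD members and 144 CPM in the others (-1.80, -2.38 to -1.28), Slfn5 at 247 and 23.96 CPM (-3.31, from 5 UMIs in the second library) and Irf7 at 237 and 62.3 CPM (-1.91). GBP and IRG genes had a median of -0.16 with 5 of 9 below 0, or 0.15 with 2 of 6 below 0 by the level in the second library. With class II-high barcodes included, 26 of 36 listed genes were lower, 10 of them 2-fold (5 of 29 by the level in the second library), and 3 were 2-fold higher, with a median of -0.53 (2.01% of all 3828 genes were 2-fold lower and 2.35% higher). The members of the second library also held fewer Ifit UMIs and lay nearer the cutoff, and the part of this in the difference was not tested.

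T cells with no Ifit UMI differed less between the libraries than members did. In class II-low T cells the list sums were 3550 and 2934 CPM at 0 Ifit UMIs and 5616 and 3400 CPM at 1. At 2 they were 6792 and 5499 CPM, so the distance between the libraries did not widen steadily. In class II-low Ifit-zero T cells none of 50 listed genes differed 2-fold between the libraries (0.166% of all 12618 genes were higher and 0.246% lower), and 35 were below 0, with a median of -0.10. With class II-high barcodes included, none of 54 did (0.158% of all 13312 genes were higher and 0.21% lower), and the median was -0.13. Ifi27l2a stood at 1867 CPM in WT NOD and 1273 CPM in the other library (-0.55), Irf7 at 34.9 and 26.8 CPM (-0.37) and Isg15 at 31.9 and 25.2 CPM (-0.33). Samhd1 (0.37), which restricts viruses by degrading nucleotides, went the other way. GBP and IRG genes had a median of 0.21, with 15 of 16 above 0.

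The same transcripts were found in other leukocytes of the sort. The share of barcodes with at least 3 Ifit UMIs was 0.657% and 0.395% in B cells and 0 of 60 and 0 of 39 in natural killer cells, with upper bounds of 5.96% and 9.03%. It was 10.2% and 12.8% in macrophages and 12.2% and 11.1% in other Lyz2-positive myeloid cells, whose median depths of 11119 to 12801 UMIs were well above those of T cells. After thinning to 2000 UMIs, 11.8% and 8.25% of macrophages kept any Ifit UMI, compared with 6.11% and 3.85% of T cells and 1.55% and 0.456% of B cells. The T-cell values were thus above those of B cells of like depth (medians 4568 and 4728 UMIs).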

How the data were processed

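Single-cell transcript counts of sorted islet leukocytes were analysed in 2 libraries, 1 per genotype. The deposited matrices hold whole-number UMI counts per gene and barcode, made by the authors with Cell Ranger 7.0.1 per the file headers, with mm10 as the genome build per the submitters' processing notes. Whether intronic reads were counted is not given in the sources used here. No column was unassigned (0).

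The members, the gene lists and the tests were chosen with earlier results of these data known. The UMIs of a group's cells were added up and scaled to CPM, 1 CPM was added, and log2 ratios were formed for genes with at least 20 UMIs observed or expected in the members. Called means a ratio of 2-fold or more. CPM carry exact Poisson intervals, from which the intervals of ratios were combined. Shares carry exact Clopper-Pearson intervals, and differences of shares carry Newcombe intervals combined from Wilson score intervals. All are at the 95% level. UMIs count molecules, but cells are not replicates. The calculation was tested on simulated data. Ifit1, Ifit3, T-cell receptor and immunoglobulin segments, and mitochondrial and ribosomal protein genes were left out of the ranking. Named genes were the 20 highest and 10 lowest ratios in all WT NOD members, and the 3 highest and the lowest of each list. The rule's genes, the markers, Cxcl16 and Cxcr6 were always named. Ahr, B2m, Ccl5, Ddx58, Gbp7, H2-K1, Ifi27l2a, Ifnar1, Ifngr1, Iigp1, Il7r, Irf9, Jak1, Lag3, Lef1, Ly6a, Mcm5, Nkg7, Pclaf, Samhd1, Stmn1, Tnfrsf18, Tnfrsf9 and Zbp1 were named after their values were seen. The class II cutoff, the count by the second library's level and the sums without the highest cell were added after seeing the data.

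Doublets were left in. As an alternative, the highest Scrublet scores (scanpy 1.11.5) were removed at 0.8% per 1000 barcodes. Other alternatives changed the Ifit threshold, the filters, the depth, the reference, the added CPM and the UMI minimum. Of 32285 gene IDs, 32235 were found in GENCODE M21. Promoter windows were from RefSeq. The values of a signalling gene are not reported here, and the counts over its list include it. Python 3.11.15, numpy 2.4.6, scipy 1.17.1 and pandas 2.3.3 were used.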

Additional observations from a re-analysis of the deposited data

Results flagged for a closer look

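Cxcl13, which encodes a B-cell attracting chemokine, went in opposite directions in the 2 libraries. Its log2 ratio of all members over Ifit-zero T cells was -1.39 for WT NOD and 2.14 for NOD.Cxcl16-/-, as labelled. The difference between these ratios was not tested, since each library is a single sample. In the library labelled NOD.Cxcl16-/-, 42 of the 43 Cxcl13 UMIs among members lay in 1 cell, and in WT NOD 4 of 158 members held the 7 Cxcl13 UMIs.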

How the results depend on the processing

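Of 2002 values recomputed under an alternative, 1892 kept their direction and 10 called values reversed. The 10 concerned Col17a1 (-0.0805 without class II-high barcodes, -1.36 at threshold 5), Gm15848 (-0.12, -0.54), Tas1r1 (-0.78, -0.74, and -0.97 thinned to 2000 UMIs), Cxcl16 without class II-high barcodes (-0.96 in WT NOD, -1.52 in the other library) and, in the other library, Cxcl13 thinned (-3.84). The cause was not tested. The share of members moved with the threshold by construction. In the order WT NOD, the other library, it was 3.45% and 1.90% at threshold 2 and 1.07% and 0.255% at 5 (difference -0.814). Thinned, it was 6.11% and 3.85% for 1 UMI (-2.26) and 0.847% and 0.137% for 3 (-0.710). It was 2.66% in WT NOD with 1000 genes (difference -1.84) and 0.513% in the other library without class II-high barcodes. Thinned subset shares in WT NOD were 3.82% Foxp3, 22.3% Cd8a, 10.8% Cd4, 0% both and 63.1% neither (19.3% neither at threshold 5), and in the other library 9.52% Cd4, 2.38% both and 66.7% neither. The number of genes 2-fold higher in WT NOD (346) became 223 by the mean of each cell, 103 thinned, 220 without high doublet scores, 797 with no minimum and 136 without class II-high barcodes. The number lower (45) became 131, 25 thinned, 78 at threshold 5, 17 with 5 CPM added, 115 with 10 UMIs, 415 with no minimum and 122 without class II-high barcodes. In the other library 344 higher became 36 thinned, 562 with 10 UMIs, 1767 with no minimum and 47 without class II-high barcodes, and 105 lower became 199 by the mean of each cell, 19 thinned, 269, 1825 and 38. The interferon list's median in WT NOD (1.997) was 2.29 at threshold 5 and 2.45 without class II-high barcodes. No other value of it moved beyond its counting interval, in either library or between them. No paired analysis was possible because each genotype has 1 library.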

Other observations

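Ifnb1 transcripts lay mainly outside the T-cell gate. Over all kept barcodes Ifnb1 had 614 UMIs in WT NOD and 1641 in the other library. Macrophages held 117 and 127 CPM, but only 122 and 375 of these UMIs, so most lay in other barcodes. Class II-low T cells held 8 and 10 Ifnb1 UMIs, each in as many cells.

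A T-cell receptor beta variable segment was found in 68 of the 158 WT NOD members, spread over 16 segments. The most frequent, Trbv12-2, made up 19.1% of these in members and 17.5% in Ifit-zero T cells.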
